A study of Mus musculus with 16 samples.

Results

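The expression of 10 genes of the blood vessel wall was followed by RNA sequencing in inguinal white adipose tissue (iWAT), a subcutaneous fat depot at the hind limb. They were chosen by name: the angiogenic ligand Vegfa, the tyrosine kinase receptors Kdr, Flt1, Tek and Tie1, the junction and surface proteins Pecam1, Cdh5 and Emcn, and the secreted proteins Vwf and Egfl7. All 10 of 10 passed the filter on low counts, among 54752 genes counted and 19736 tested. There were 16 libraries, 4 of each of 4 genotypes, from C57BL/6 mice labelled as females aged 90 days. WT mice carried neither mutation, and Lepob/+ mice carried a single copy of the ob allele of the leptin gene. SOD1G93A mice carried a transgene of mutant human SOD1, a model of amyotrophic lateral sclerosis. SOD1G93A-Lepob/+ mice carried both, and were bred from Lepob/+ females and SOD1G93A males. The transgene runs from the human SOD1 promoter and, like the ob allele, is in every cell of the animal, so no group isolates an effect within fat or vessels. Each library is taken here as 1 animal, since nothing in the labels describes pooling.

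Adipose tissue is densely vascularised, and its capillary endothelium delivers fatty acids to adipocytes, which themselves make VEGFA. VEGFA signals through KDR, while FLT1 binds the same ligand tightly and limits what reaches KDR. The angiopoietins act through TEK, with TIE1 as its partner receptor, and set how stable and how leaky a vessel is. In bulk tissue a lower level can mean fewer cells of a type or less RNA per cell, and these cannot be told apart.

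The endothelial receptors are shown first through their promoters, the sequences before the annotated start site. The 9 genes other than Vegfa are called the endothelial genes here. Whether promoter sequence bears on how these genes vary between libraries was not tested. Transcription factors of the ETS family, which drive much of endothelial gene expression, bind a core that reads GGAAG in many of their sites. Sequences are from RefSeq, build GRCm38.p6, for 3 receptors and Emcn, written 5′ to 3′ on the strand of the gene. Capitals mark GGAAG or its reverse complement, CTTCC, and bases that fall inside an annotated exon were left out.

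Kdr, chr5:75978459-75978705, minus strand: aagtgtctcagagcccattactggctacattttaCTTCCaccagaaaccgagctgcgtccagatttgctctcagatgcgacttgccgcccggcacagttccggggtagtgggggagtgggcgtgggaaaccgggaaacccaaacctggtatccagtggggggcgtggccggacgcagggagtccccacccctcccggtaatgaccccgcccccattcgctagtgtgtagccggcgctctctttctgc
Flt1, chr5:147726012-147726261, minus strand: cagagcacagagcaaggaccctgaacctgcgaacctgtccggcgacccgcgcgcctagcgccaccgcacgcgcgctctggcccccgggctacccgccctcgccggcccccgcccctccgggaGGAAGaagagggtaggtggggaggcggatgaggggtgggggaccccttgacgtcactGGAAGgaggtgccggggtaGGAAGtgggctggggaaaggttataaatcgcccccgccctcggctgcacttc
Tek, chr4:94739039-94739288, plus strand: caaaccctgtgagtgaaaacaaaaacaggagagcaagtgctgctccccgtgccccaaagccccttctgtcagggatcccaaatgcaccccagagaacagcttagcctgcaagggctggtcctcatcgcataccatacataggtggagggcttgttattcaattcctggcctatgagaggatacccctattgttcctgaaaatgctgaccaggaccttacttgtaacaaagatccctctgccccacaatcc
Emcn, chr3:137340828-137341066, plus strand: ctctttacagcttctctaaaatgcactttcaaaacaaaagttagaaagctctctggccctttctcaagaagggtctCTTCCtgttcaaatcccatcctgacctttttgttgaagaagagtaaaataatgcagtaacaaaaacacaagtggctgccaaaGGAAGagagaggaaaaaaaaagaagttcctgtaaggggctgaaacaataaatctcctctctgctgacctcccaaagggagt

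Among the promoters printed, Flt1 held 3 copies of the core, Emcn 2, Kdr 1 and Tek 0. The promoter of the receptor Tie1, not printed here, held more copies than that of Flt1, as did a promoter of Egfl7. RefSeq promoters were found for 7 of the 10 genes, with 10 promoters in all, and not for Pecam1, Cdh5 and Vwf. Over the 250 bases before the start and on either strand, GGAAG was in 8 of these 10 promoters, and in 64.1% of 32851 mouse promoters. The longer form CAGGAAG was in 3 of 10, at Emcn and Egfl7, and in 10.8% of all promoters. The form CCGGAAG was in 0 of 10 and in 6.91% of all promoters, and both longer forms contain GGAAG. The hypoxia response core ACGTG was in 1 of 10, at Vegfa, and in 16.6% of all promoters. These matches describe letters in a window, and say nothing about binding.

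On GRCm38 the receptors lie at chr5:75932827-75978458 (Kdr, 29 exon blocks), chr5:147561604-147726011 (Flt1, 33 blocks), chr4:94739289-94874976 (Tek, 23 blocks) and chr4:118471191-118490061 (Tie1, 22 blocks). Vegfa lies at chr17:46016993-46032369, with 8 exon blocks. The junction and surface genes lie at chr11:106654217-106750628 (Pecam1, 17 blocks), chr8:104101625-104144511 (Cdh5, 13 blocks) and chr3:137341067-137432185 (Emcn, 12 blocks). Vwf lies at chr6:125546774-125686679 with 56 exon blocks, and Egfl7 at chr2:26580014-26593120 with 11. Egfl7 shares 264 exon bases, 7.4% of its exons, with Gm20532 on the same strand, and 64 (1.8%) with Agpat2 on the other strand. The strand setting of the counting is not given in the sources used here, so the values of Egfl7 carry that uncertainty.

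Total counts ran from 36.8 to 61.9 M (mega counts) per library, and each vascular gene had 678 to 17740 counts in every library. The adipocyte markers Adipoq (1209 to 3262 CPM), Plin1 and Cidec were high in all 16 libraries. Lep itself ran from 181 to 1843 CPM, but the ob allele is not a deletion, so its count does not check the genotype, and human SOD1 was not in the table. The libraries differed in tissues other than fat. A lymphocyte level, the mean log2 CPM of 26 T and B cell genes, was 6.16, 5.78, 0.37 and 1.65 in WT replicates 1 to 4, and 0.48, 0.23, 6.68 and 0.15 in Lepob/+. In SOD1G93A it was 6.25, 7.07, -0.07 and 6.35, and in SOD1G93A-Lepob/+ 0.31, 0.91, 0.05 and 0.12. Glycam1, a marker of the high endothelial venules of lymph nodes, was at 203 to 614 CPM in the 6 libraries with a level above 5 and at most 0.1 CPM in the others. A further library, Lepob/+ replicate 4, held 193870 summed CPM of 12 skeletal muscle genes. The library labelled SOD1G93A-Lepob/+ replicate 3 had 0 counts of Xist, against at least 11895 in the others, and 1756 counts of Y chromosome genes, against 0 in the others, which goes against its label of a female. Medians of the vascular genes in comparisons that include it, and some of the lists and correlations, are given with and without it. Other lists and correlations, and the counts from DESeq2 on all libraries, are given only with it.

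Levels were first compared between genes per length, as RPKM (CPM divided by the exon length in kilobases). The exon length is that of all annotated exons of a gene merged, from 3581 bases for Egfl7 to 16064 for Vwf. It can exceed the length of a single transcript, so the order depends on the annotation. Cdh5, VE-cadherin of the endothelial junction, had the highest mean at 53.2 ± 15.9 RPKM (SD, n = 16), followed by Vegfa at 44.7 ± 10.6 and Pecam1 at 31.8 ± 5.78. Egfl7 (25.1), Tek (18.3), Tie1 (17.0), Kdr (14.3), Flt1 (6.95), Vwf (4.69) and Emcn (4.39) followed. Kdr lay above Flt1 and Flt1 above Vwf in 16 of 16 libraries. All neighbours in this order other than Kdr and Flt1 overlapped in mean ± SD, with Tek above Tie1 in 9 of 16 libraries, Vwf above Emcn in 10, Cdh5 above Vegfa in 12 and Tie1 above Kdr in 14. From here on levels are CPM after TMM scaling, which allow a gene to be compared between libraries and not with another gene.

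**Figure D1:**
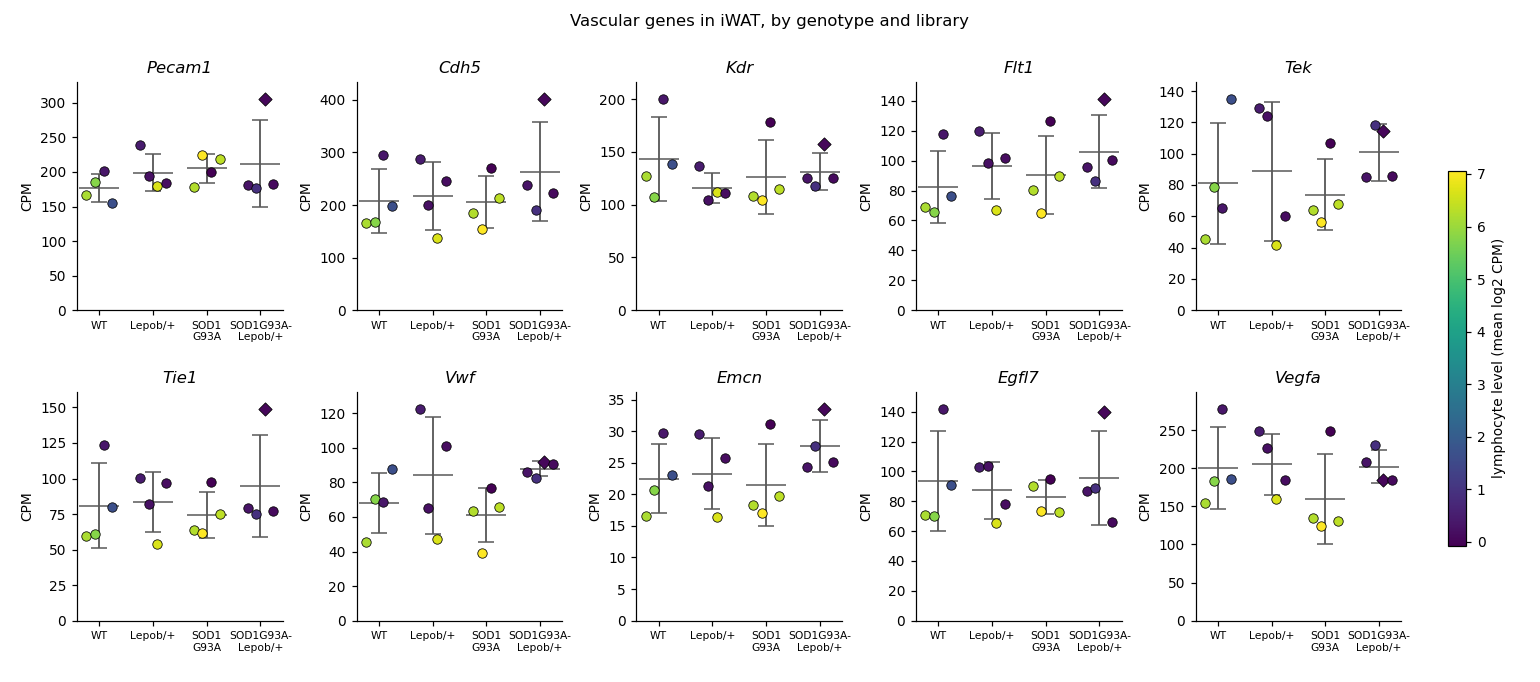
CPM of the 10 vascular genes (y axis, from 0) by genotype (x axis), a point for each library in replicate order, with the mean and SD of 4 libraries as the grey dash and bar. The colour is the lymphocyte level, and the diamond is the library labelled SOD1G93A-Lepob/+ replicate 3, the highest of 16 for Pecam1, Cdh5, Flt1, Tie1 and Emcn.

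The ligand Vegfa was at 154, 183, 277 and 186 CPM in WT, at 249, 226, 159.8 and 185 in Lepob/+, at 135, 124, 249 and 131 in SOD1G93A, and at 209, 230.0, 185 and 185 in SOD1G93A-Lepob/+. SOD1G93A replicates 1, 2 and 4 were the lowest 3 of the 16 libraries, while replicate 3 of the same genotype was among the highest, so the groups overlapped. Its mean was 159.6 ± 59.5 CPM in SOD1G93A (SD, n = 4), against 200.1 ± 53.5 for WT, 205 ± 40.0 for Lepob/+ and 202 ± 21.7 for SOD1G93A-Lepob/+.

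Kdr (VEGFR2), the main signalling receptor for VEGFA, was at 127, 107, 200.3 and 139 CPM in WT, at 137, 104, 112 and 111 in Lepob/+, at 108, 105, 178 and 115 in SOD1G93A, and at 125, 118, 157 and 125 in SOD1G93A-Lepob/+. The highest libraries were WT 3 and SOD1G93A 3, and every pair of genotypes overlapped, with means of 143 ± 40.1 CPM in WT and 116 ± 14.3 CPM in Lepob/+ (SD, n = 4 each). Kdr had the smallest range of the 10 genes, 1.93-fold from the lowest to the highest library. Flt1 (VEGFR1) was at 69.1, 65.7, 118 and 76.2 CPM in WT, at 119.9, 98.3, 66.9 and 102 in Lepob/+, at 80.1, 65.3, 127 and 89.9 in SOD1G93A, and at 95.6, 86.5, 141 and 100.5 in SOD1G93A-Lepob/+. Its 4 SOD1G93A-Lepob/+ libraries lay above 3 of the 4 WT libraries, with WT 3 above 3 of them.

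The angiopoietin receptor Tek had the widest range, 3.25-fold. It was at 45.2, 78.9, 65.0 and 135 CPM in WT, at 129, 124, 41.6 and 59.9 in Lepob/+, at 63.9, 56.3, 107 and 67.5 in SOD1G93A, and at 84.8, 118, 114 and 85.5 in SOD1G93A-Lepob/+. WT and Lepob/+ each spanned nearly the whole range, and the biological coefficient of variation was 38.2%, against a median of 30.6% over all genes tested. Tie1, the partner receptor, was at 59.3, 60.7, 123 and 80.0 CPM in WT, at 100.4, 82.0, 54.0 and 96.8 in Lepob/+, at 64.1, 62.0, 97.2 and 74.7 in SOD1G93A, and at 78.9, 75.1, 149 and 77.4 in SOD1G93A-Lepob/+. A single library was high in each of WT, SOD1G93A and SOD1G93A-Lepob/+, each time replicate 3.

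Cdh5 was at 166, 168, 295 and 199 CPM in WT, at 288, 200.5, 137 and 245 in Lepob/+, at 185, 155, 271 and 213 in SOD1G93A, and at 239, 191, 402 and 223 in SOD1G93A-Lepob/+. The pattern over libraries was close to that of Tie1, with the same highest and lowest library. Pecam1, an adhesion molecule of endothelial junctions that platelets and many leukocytes also carry, was at 166, 186, 201 and 155 CPM in WT, at 239, 195, 179 and 184 in Lepob/+, at 178, 225, 199.9 and 218 in SOD1G93A, and at 181, 177, 306 and 183 in SOD1G93A-Lepob/+. Apart from the library labelled SOD1G93A-Lepob/+ replicate 3 its levels were close, and its biological coefficient of variation was the lowest of the 10, at 21.5%. Emcn, a sialomucin of capillaries and veins, was at 16.5, 20.7, 29.6 and 23.1 CPM in WT, at 29.5, 21.3, 16.5 and 25.7 in Lepob/+, at 18.3, 17.0, 31.1 and 19.7 in SOD1G93A, and at 24.4, 27.6, 33.5 and 25.2 in SOD1G93A-Lepob/+. All 4 SOD1G93A-Lepob/+ libraries exceeded 3 of the 4 SOD1G93A libraries, with replicate 3 of SOD1G93A above 3 of them.

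Vwf, which endothelial cells store and release to tether platelets, was at 45.4, 70.4, 68.7 and 88.0 CPM in WT, at 122, 65.1, 47.4 and 101 in Lepob/+, at 63.4, 39.3, 76.7 and 65.7 in SOD1G93A, and at 86.1, 82.8, 92.0 and 90.7 in SOD1G93A-Lepob/+. The 4 SOD1G93A-Lepob/+ libraries ran only from 82.8 to 92.0 CPM and lay all above the 4 SOD1G93A libraries, with means of 87.9 ± 4.22 and 61.3 ± 15.8 CPM (SD, n = 4 each). The matrix-bound angiogenic factor Egfl7 was at 71.1, 70.1, 142 and 90.6 CPM in WT, at 103, 104, 65.1 and 78.1 in Lepob/+, at 90.4, 73.4, 94.7 and 72.7 in SOD1G93A, and at 86.7, 89.0, 139.8 and 66.1 in SOD1G93A-Lepob/+. Its highest libraries were WT 3 and SOD1G93A-Lepob/+ 3.

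Over the 10 genes, the library labelled SOD1G93A-Lepob/+ replicate 3 was the highest for 5 and WT replicate 3 for 3, while Lepob/+ replicate 3 was the lowest for 5 and SOD1G93A replicate 2 for 3. The last 2 have the highest lymphocyte levels of all libraries.

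Whether leptin haploinsufficiency changed the vessel genes in the SOD1G93A background was asked by comparing SOD1G93A-Lepob/+ with SOD1G93A. All 10 genes had a higher mean in SOD1G93A-Lepob/+, with a median log2 fold change of 0.35, against 0.0005 over all genes tested, and none passed the test. The number of genes called at an adjusted p under 0.05 was 0 of 10, and 0 of 19736 genes (0.0%) by edgeR, while DESeq2 called 595 genes and again 0 of the 10. At an unadjusted p under 0.05 it was 0 of 10, against 16.5% of all genes.

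Vwf had the largest difference, 0.52 ± 0.28 (log2 fold change ± SE, edgeR quasi-likelihood test, unadjusted p = 0.082, adjusted p = 0.354, 95% interval -0.08 to 1.12). It was the only one of the 10 whose 4 higher libraries did not overlap the other 4, against 3.58% of all genes in that direction. When only these 2 genotypes entered the fit, Vwf had an unadjusted p of 0.025 by edgeR (adjusted p = 0.191) and of 0.014 by DESeq2 (adjusted p = 0.0967). Tek followed with 0.45 ± 0.38. Emcn was at 0.36 ± 0.23 and Cdh5 at 0.36 ± 0.29. Tie1 differed by 0.35 ± 0.29, Vegfa by 0.34 ± 0.24, Flt1 by 0.23 ± 0.25 and Egfl7 by 0.20 ± 0.26. Kdr (0.05 ± 0.21, 95% interval -0.39 to 0.50) and Pecam1 (0.04 ± 0.18, interval -0.34 to 0.43) were nearest to 0. The 95% intervals of all 10 genes include 0, with upper bounds from 0.43 for Pecam1 to 1.26 for Tek.

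The shared upward direction rested in part on 1 library. Without the library labelled SOD1G93A-Lepob/+ replicate 3, 7 genes stayed above 0 and 3 were below it, with a median of 0.07. Cdh5 went from 0.36 to 0.08, Tie1 from 0.35 to 0.05 and Pecam1 from 0.04 to -0.19, while Vwf (0.50) and Vegfa (0.38) kept their size. Leaving out SOD1G93A replicate 3, the library of that genotype with the lymphocyte level of -0.07, had the opposite effect. Vegfa (0.65, unadjusted p = 0.0066), Emcn (0.60, unadjusted p = 0.016) and Vwf (0.66, unadjusted p = 0.049) then passed an unadjusted p of 0.05. None passed an adjusted one (edgeR, adjusted p from 0.0879 to 0.176). In the same fit 5635 genes in all had an unadjusted p under 0.05, against 3261 of 19736 (16.5%) with all libraries. The higher count was thus not particular to the vascular genes.

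**Figure D2:**
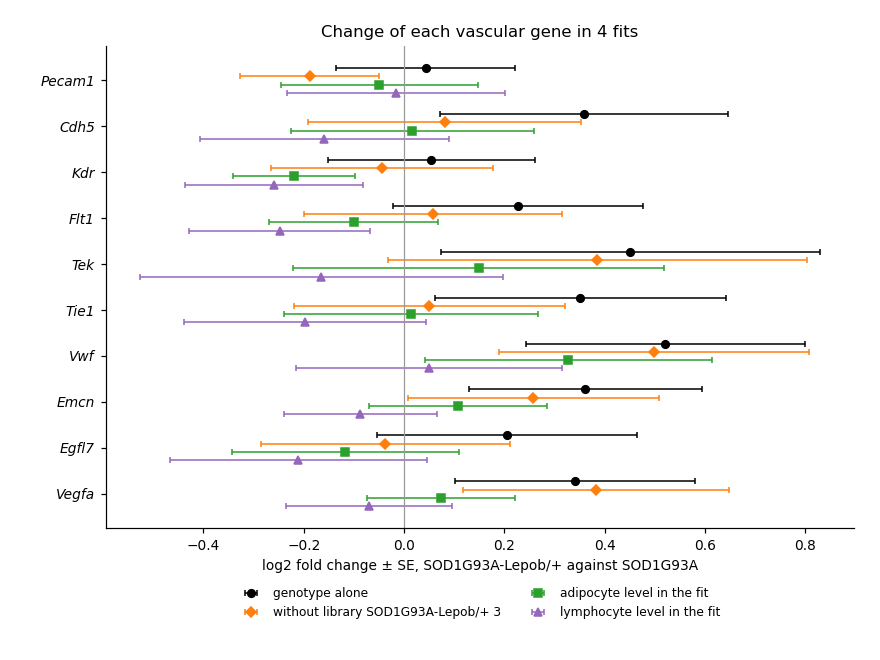
Log2 fold change ± SE (x axis) of SOD1G93A-Lepob/+ against SOD1G93A for each vascular gene (y axis) in 4 fits, told apart by colour and marker. With genotype alone all 10 points lie above 0, without the library labelled SOD1G93A-Lepob/+ replicate 3 the median is 0.07, and with the lymphocyte level in the fit only Vwf lies above 0.

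Markers of other cells moved with this comparison. The lymphocyte level ran from -0.07 to 7.07 in SOD1G93A and from 0.05 to 0.91 in SOD1G93A-Lepob/+, with 14 of 14 T cell and 12 of 12 B cell genes lower in the second genotype. With that level added to the fit, 1 of the 10 vascular genes was higher and 9 were lower, with a median of -0.16, and Vwf was at 0.05 ± 0.27. With the adipocyte level, the mean log2 CPM of 12 genes of mature adipocytes, added in its place, 6 were higher and 4 lower, with a median of 0.02, and Vwf was at 0.33 ± 0.29. Red blood cell genes were also higher in SOD1G93A-Lepob/+, with 6 of 6 at an unadjusted p under 0.05 and a median of 1.07, and 317 to 748 summed CPM in SOD1G93A against 707 to 1358. The directions of these 14, 12 and 6 genes were the same without the library labelled SOD1G93A-Lepob/+ replicate 3, and the median of the red blood cell genes was 1.23. Their part in the vascular values was not tested.

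In the comparison of Lepob/+ with WT, 8 genes stood higher and 2 lower, with log2 fold changes from -0.31 to 0.30 and a median of 0.06, against 0.03 over all genes. None of the 10 passed at an unadjusted p under 0.05 (4.37% of all genes did), nor at an adjusted one (0.0% of all genes by edgeR). Kdr was lower by 0.31 ± 0.21 (edgeR, unadjusted p = 0.158), with 3 of 4 Lepob/+ libraries at 104 to 112 CPM. Vwf was higher by 0.30 ± 0.28, with Lepob/+ replicates 1 and 4 above all WT libraries. Without Lepob/+ replicate 4, the library with muscle genes, 5 genes were above 0 and 5 below, at a median of 0.02. The direction turned without WT replicate 1 (3 higher and 7 lower, median -0.08), without Lepob/+ replicate 1 (3 and 7, median -0.08) and with the lymphocyte level in the fit (3 and 7, median -0.12). It was more uniform without WT replicate 3 or without Lepob/+ replicate 3, with 9 higher and 1 lower each time and medians of 0.24 and 0.20. With the lymphocyte level in the fit Kdr reached an unadjusted p of 0.023 (edgeR), and with the adipocyte level Flt1 reached 0.018, neither past the adjusted threshold.

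SOD1G93A was compared with WT to see the effect of the transgene. Here 2 genes were higher and 8 lower, from -0.33 to 0.21 with a median of -0.13, against 0.02 over all genes. Again 0 of 10 passed at an unadjusted p under 0.05 (2.56% of all genes) and 0 at an adjusted p (0.0% by edgeR). Vegfa was at -0.33 ± 0.24 (edgeR, unadjusted p = 0.194), and Pecam1, in the other direction, at 0.21 ± 0.18. Without SOD1G93A replicate 3, Vegfa stood at -0.65 ± 0.20 (edgeR, unadjusted p = 0.0066, adjusted p = 0.607) and Kdr at -0.42 ± 0.19 (unadjusted p = 0.046), 2 of the 10 genes past an unadjusted p of 0.05. In that fit 1541 genes in all passed it, against 505 of 19736 with all libraries, so the rise was not particular to the vascular genes. The median of the 10 genes was then -0.30, and without WT replicate 1 it was -0.25. The direction turned without WT replicate 3, with 7 genes higher and 3 lower (median 0.10), and without SOD1G93A replicate 2 the genes divided into 5 higher and 5 lower. With the lymphocyte level in the fit 6 were higher and 4 lower (median 0.06), and likewise with the adipocyte level (median 0.02).

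The SOD1G93A-Lepob/+ libraries also enter the comparisons with WT and with Lepob/+, so these share libraries with those above and are not independent of them. Against WT, 9 genes stood higher and 1 lower, at a median of 0.28 (0.007 over all genes), and 0 of 10 passed at an unadjusted p under 0.05 (4.74% of all genes) or at an adjusted one (0.0% by edgeR). Flt1 was at 0.37 ± 0.25 and Kdr, the gene that was lower, at -0.13 ± 0.21. Against Lepob/+, 9 were higher and 1 lower with a median of 0.16 (-0.06 over all genes), and 0 of 10 passed at an unadjusted p under 0.05 (8.24% of all genes) or at an adjusted one (0.0% by edgeR). Cdh5 was at 0.28 ± 0.29 and Vegfa at -0.02 ± 0.24. Without the library labelled SOD1G93A-Lepob/+ replicate 3 the medians of these comparisons were 0.06, with 7 genes higher and 3 lower, and 0.01, with 6 higher and 4 lower. Against WT the median was 0.14 without WT replicate 1, and turned to -0.06 with the lymphocyte level in the fit, with 4 higher and 6 lower. Against Lepob/+ it was 0.02 without Lepob/+ replicate 3, 0.28 without Lepob/+ replicate 1 and 0.04 with the lymphocyte level, and turned to -0.14 with the adipocyte level, with 1 higher and 9 lower.

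The interaction asked whether the effect of Lepob/+ differed with and without the transgene. For 8 genes it was above 0 and for 2 below, with a median of 0.30 (-0.09 over all genes). None of the 10 passed at an unadjusted p under 0.05 (7.98% of all genes) or at an adjusted one (0.0% by edgeR). Kdr had the largest, 0.36 ± 0.29, and Pecam1 the lowest, -0.13 ± 0.25. Without SOD1G93A replicate 3, Vegfa (0.63 ± 0.27, unadjusted p = 0.037) and Kdr (0.60 ± 0.26, unadjusted p = 0.036) passed an unadjusted p of 0.05 by edgeR, with adjusted p of 0.30 and 0.299. The median was 0.48 without that library, 0.13 without the library labelled SOD1G93A-Lepob/+ replicate 3, 0.15 without Lepob/+ replicate 3 and 0.08 without WT replicate 3. It turned with either level in the fit: 4 genes were above 0 and 6 below with the lymphocyte level (median -0.02), and 0 above and 10 below with the adipocyte level (median -0.16). DESeq2 on all libraries called 1 gene for Lepob/+ against WT, 2 for SOD1G93A against WT, 47 and 77 for SOD1G93A-Lepob/+ against WT and Lepob/+, and 46 for the interaction, with 0 of the 10 vascular genes among them.

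The vascular genes were then read against the tissue makeup of the libraries. With genotype in the fit, 9 of 10 vascular genes fell as the lymphocyte level rose (edgeR, adjusted p under 0.05), against 14.4% of all genes called in that direction. Emcn had a slope of -0.11 ± 0.02 (log2 fold change per log2 unit of the level ± SE, edgeR, adjusted p = 0.000762), and Vegfa one of -0.10 ± 0.02 (adjusted p = 0.00171). Among the receptors the slope was -0.11 for Flt1 (edgeR, adjusted p = 0.00189), -0.12 for Tie1 (adjusted p = 0.00651), -0.08 for Kdr (adjusted p = 0.0161) and -0.15 for Tek (adjusted p = 0.0273). Cdh5 had a slope of -0.12 (edgeR, adjusted p = 0.0103), Vwf one of -0.11 (adjusted p = 0.0262) and Egfl7 one of -0.09 (adjusted p = 0.0403).

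Pecam1 was the exception, at -0.01 ± 0.03 (edgeR, adjusted p = 0.742, 95% interval -0.07 to 0.04). Its ratio to Cdh5 in CPM was 1.00, 1.11, 0.68 and 0.78 in WT, 0.83, 0.97, 1.31 and 0.75 in Lepob/+, 0.96, 1.46, 0.74 and 1.03 in SOD1G93A, and 0.76, 0.93, 0.76 and 0.82 in SOD1G93A-Lepob/+. The 2 highest ratios were in SOD1G93A 2 and Lepob/+ 3, the libraries with the 2 highest lymphocyte levels. The number of vascular genes called depended on single libraries: 5 without Lepob/+ replicate 3, and 6 without SOD1G93A replicate 3, where Kdr, Tek and Vwf did not pass. Without the library labelled SOD1G93A-Lepob/+ replicate 3 it was 9, and 7 on the adipocyte level described next.

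**Figure D3:**
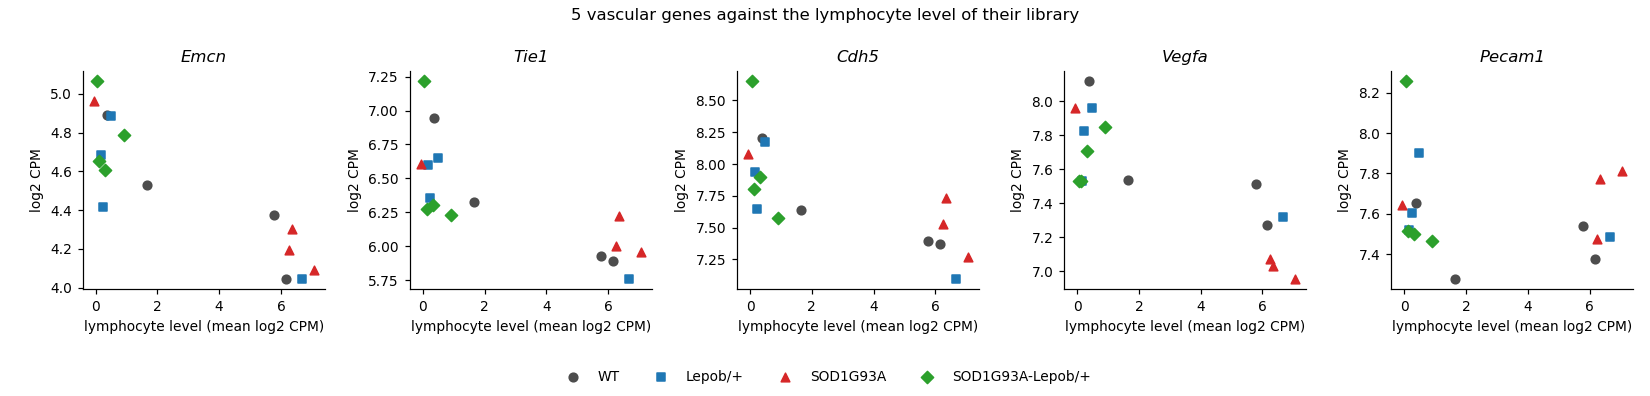
Log2 CPM (y axis, a separate range for each gene) of Emcn, Tie1, Cdh5, Vegfa and Pecam1 against the lymphocyte level of the library (x axis, mean log2 CPM of 26 genes), a point for each of 16 libraries with colour and marker for genotype. The points lie at low or high levels with few between, and only Pecam1 shows no downward slope (-0.01).

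The same genes followed the adipocyte level in the other direction. All 10 slopes were above 0, and 7 of 10 were called higher (edgeR, adjusted p under 0.05), against 7.91% of all genes in that direction. The slope was 0.71 ± 0.13 for Vegfa (log2 per log2 ± SE, edgeR, adjusted p = 0.00567), 0.63 for Kdr (adjusted p = 0.00357), 0.74 for Flt1 (adjusted p = 0.00764) and 0.61 for Emcn (adjusted p = 0.0172). Cdh5 (0.72, adjusted p = 0.0305 by edgeR), Egfl7 (0.65, adjusted p = 0.0368) and Tie1 (0.71, adjusted p = 0.0384) also rose with it. The slopes of Tek (0.75, adjusted p = 0.137 by edgeR), Vwf (0.44, adjusted p = 0.244) and Pecam1 (0.18, adjusted p = 0.514) did not pass. The lymphocyte and adipocyte levels were themselves related over the 16 libraries (Pearson's r = -0.76, Spearman's rho = -0.71, a description over libraries that share genotypes). With both levels in the same fit 0 of 10 vascular genes were called on either, so at that threshold their relations to the vascular genes cannot be told apart. At an unadjusted p under 0.05 (edgeR) stood Kdr on the adipocyte level (0.61), and Emcn (-0.09) and Vwf (-0.13) on the lymphocyte level. No other vascular gene did so on either level. With the adipocyte level alone beside genotype, 0 of 10 were called without SOD1G93A replicate 3, the library with the highest adipocyte level. The count was 3 without WT replicate 3. It was 4 without each of WT replicates 1 and 2, Lepob/+ replicate 1 and SOD1G93A replicate 2. The count over all genes also fell, from 4086 with all libraries to 307 without SOD1G93A replicate 3. It was 2285 without WT replicate 3 and 2637 without SOD1G93A replicate 2. Without WT replicates 1 or 2 or Lepob/+ replicate 1 the count over all genes moved less. Over the 16 fits that each left out 1 library, Cdh5 was called on this level in 10, and Tie1 and Egfl7 in 7 each.

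Other vascular gene lists were read on the same slope. Of 10 genes of capillary endothelium, 9 fell with the lymphocyte level and 0 rose, with a median slope of -0.11, against -0.008 over all genes. They included Rgcc (-0.15), Timp4 (-0.25) and Gpihbp1 (-0.13), the protein that carries lipoprotein lipase across the capillary wall. With the adipocyte level 10 of these 10 rose, with a median of 0.85 (-0.05 over all genes). Some genes of this list, such as Cd36, Aqp7 and Timp4, are also expressed by adipocytes. The rise of the list therefore cannot be read as one of endothelium alone. Of 12 tested ligands of endothelial receptors, 4 fell and 0 rose (median -0.10), with Vegfb (-0.11), Pdgfb (-0.10) and Angpt1 (-0.12), the agonist of Tek, first by p. Of 15 other endothelial receptors, 7 fell and S1pr1 (0.09) alone rose (median -0.07), with Ptprb (-0.13), Adgrl4 (-0.10) and Acvrl1 (-0.10) among those that fell. Of 12 mural cell genes, Kcnj8 (-0.10), Pdgfrb (-0.10) and Rgs5 (-0.09) fell and 0 rose.

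Some lists held genes that rose with the lymphocyte level, as did 18.5% of all genes, so the 1 to 3 genes that rose in each list below are near or under that share. Among 13 other junction and surface genes, 2 rose and 3 fell (median -0.06): Icam1 (0.20), which leukocytes bind when they leave the blood, rose, and Esam (-0.12) and Mcam (-0.18) fell. Among 8 venous genes, Vcam1 (0.18), another leukocyte adhesion molecule, rose, while Tspan7 (-0.13), Ackr1 (-0.14) and Sele (-0.26) fell. Among 13 endothelial transcription factors, Ets1 (0.39), Klf2 (0.09) and Fli1 (0.07), which lymphocytes also express, rose, and 7 fell, with Sox17 (-0.14) and Gata2 (-0.14) first. Of 9 arterial genes, 5 fell, led by Gja4 (-0.11) and Sema3g (-0.12), and Stmn2 (0.16) rose. Of 9 tip cell genes 2 rose, Cxcr4 at 0.34 and Rasgrp3 at 0.10, and 2 fell, Nid2 at -0.27 and Esm1 at -0.19. Of 11 genes of coagulation and vascular tone, F8 rose (0.15) and 5 fell, with Thbd at -0.18.

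High endothelial venules, vessels of lymph nodes, were also read, as were lymphatic endothelium, hypoxia response and mature adipocyte genes. Of 7 genes of high endothelial venules, 4 rose and 0 fell: Chst4 (1.70), Glycam1 (2.53), Ubd (0.36) and Madcam1 (0.49). Of 7 tested genes of lymphatic endothelium, Ccl21a (1.51) and Prox1 (0.36) rose, and Reln (-0.20) and Pdpn (-0.16) fell. Of 14 hypoxia response genes, 3 rose and 3 fell (median -0.01), with Ndrg1 (-0.14), Bnip3 (-0.14) and Vldlr (-0.16) lower and Ankrd37 (0.33), Slc2a1 (0.08) and Pdk1 (0.11) higher. The mature adipocyte genes themselves fell in 8 of 12, with a median of -0.11 (-0.11 for the vascular genes too). The list medians on the lymphocyte level kept their sign without the library labelled SOD1G93A-Lepob/+ replicate 3, where 9 of 10 capillary genes fell again, and 6 of 12 ligands did.

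**Figure D4:**
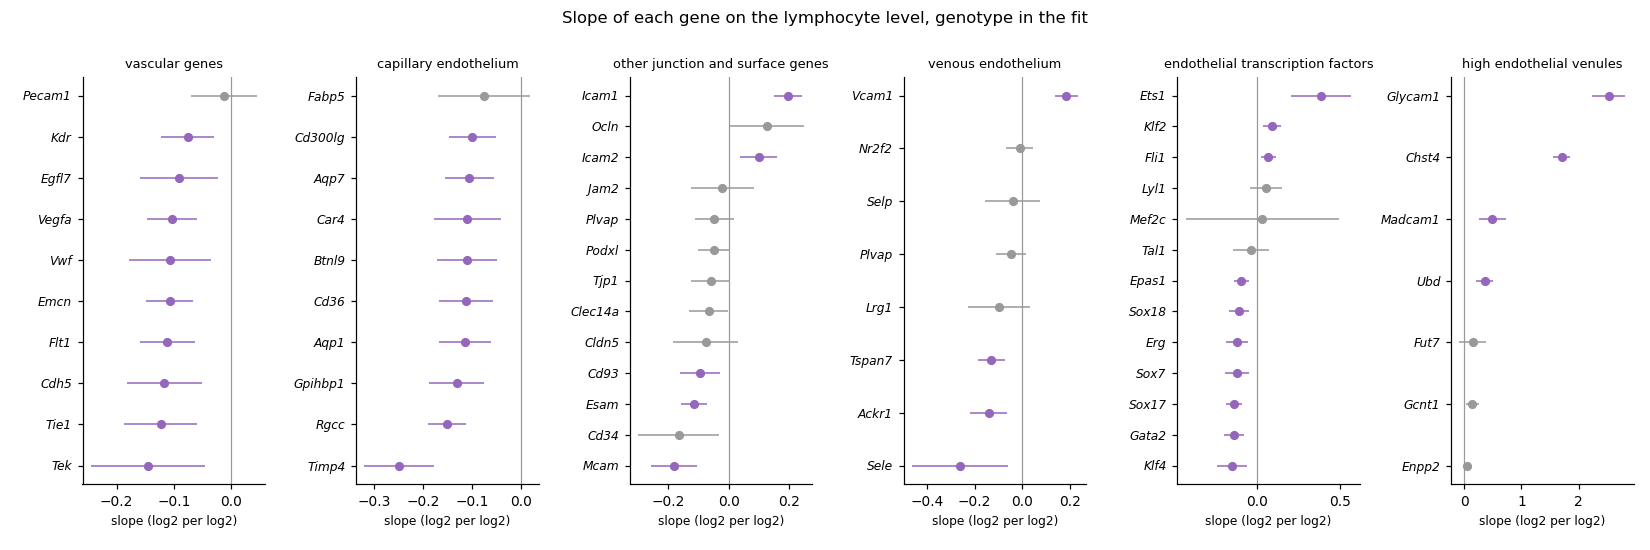
Slope of single genes on the lymphocyte level (x axis, log2 fold change per log2 unit, with its 95% interval, and a separate range in each panel) for the vascular genes and 5 other lists, with genotype in the fit. Purple marks an adjusted p under 0.05 by edgeR and grey the rest: all 10 vascular genes and all 10 capillary genes lie below 0, with 9 of 10 called in each, and 4 of 7 genes of high endothelial venules are called above it.

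The lists were also read between SOD1G93A-Lepob/+ and SOD1G93A, where 0 genes passed the adjusted threshold by edgeR. The medians were 0.42 for capillary genes (9 of 10 higher), 0.30 for ligands (10 of 12 higher), 0.31 for mural cells (9 of 12 higher) and 0.34 for junction and surface genes (11 of 13 higher). They were 0.37 for arterial (7 of 9 higher) and venous genes (7 of 8 higher), 0.23 for transcription factors (8 of 13 higher), 0.19 for other receptors (11 of 15 higher) and 0.03 for tip cell genes (5 of 9 higher). At an unadjusted p under 0.05, where 16.5% of all genes stood, were 0 of 10 capillary genes, 0 of 12 ligands and 0 of 9 arterial genes, so these lists held fewer than the share over all genes. Higher at that threshold were the junction protein Jam2 (0.93) and the surface sialomucin Podxl (0.57) of 13 junction and surface genes, the TGF-beta co-receptor Eng (0.42) of 15 other receptors, the pericyte genes Higd1b (0.76) and Notch3 (0.44) of 12 mural cell genes, and Selp (0.94) and Lrg1 (0.87) of 8 venous genes. Lower were Icam1 (-0.80) of the junction and surface genes, Vcam1 (-0.99) of the venous genes, Fli1 (-0.47) and Klf2 (-0.58) of 13 transcription factors, Cxcr4 (-2.24) and Rasgrp3 (-0.94) of 9 tip cell genes, Pdk1 (-1.03) and Ankrd37 (-2.15) of 14 hypoxia response genes, F8 (-0.85) of 11 genes of coagulation and vascular tone, and 4 of 7 genes of high endothelial venules. Each named gene that was lower here is also among those that rose with the lymphocyte level. When the library labelled SOD1G93A-Lepob/+ replicate 3 was left out, the medians were 0.36 for capillary genes, 0.21 for ligands, 0.24 for mural cells, 0.17 for junction and surface genes, and -0.11 for transcription factors and -0.22 for tip cell genes, which turned. Eng (0.37), Notch3 (0.34), Lrg1 (0.61), Icam1 (-0.88) and F8 (-0.82) then missed the unadjusted threshold, which 13% of all genes passed.

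The 10 genes were then compared with each other. Over 16 libraries, the correlation of log2 CPM among the 9 endothelial genes had a median Pearson's r of 0.67 over 36 pairs, from 0.18 to 0.97. The closest pairs were Cdh5 with Tie1 (0.97) and Cdh5 with Flt1 (0.95). Vegfa correlated with the 9 at a median of 0.59, and Pecam1 with the other 9 genes at a median of 0.43. These are descriptions over libraries that share their tissue makeup and scaling. When genotype and the lymphocyte level were removed from each gene, the median among the 9 endothelial genes was 0.51, and that of Vegfa with them was 0.09, from -0.15 to 0.37. Pecam1 then stood with Cdh5 at 0.84 (0.63 before) and with Tie1 at 0.88. Over the 15 other libraries, without the library labelled SOD1G93A-Lepob/+ replicate 3, the medians were 0.64 among the 9 endothelial genes, 0.70 for Vegfa with them and 0.20 for Pecam1 with the others. After genotype and the lymphocyte level were removed they were 0.34 among the 9 and 0.41 for Vegfa. The separate course of Vegfa after that step thus rested on this library. Pecam1 then stood at 0.58 with Cdh5 (0.35 before that step) and at 0.63 with Tie1 (0.32 before). It still came closer to both after that step, at lower values than with the library.

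Among 12621 genes with a mean of at least 5 CPM, those most like the mean of the 9 endothelial genes were Arap3 (r = 0.97), Mmrn2 (0.96), Caskin2 (0.96), Dock6 (0.96) and Ccm2l (0.96), over 16 libraries. Those most like Vegfa were other genes: Bloc1s5 (0.94), Sqor (0.93), Ctif (0.92), Ogfod3 (0.92) and 2700046G09Rik (0.92). The correlations of these genes without the library labelled SOD1G93A-Lepob/+ replicate 3 ran from 0.95 to 0.96 for the first 5 and from 0.92 to 0.96 for the second.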

How the data were processed

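The authors extracted RNA from iWAT, trimmed paired reads of 100 bp with fastp (Phred 30, at least 30 bases), aligned them to mm10 with HISAT2 2.1.0 and kept unique alignments for the counts per gene, made with featureCounts 2.0.2. The deposited values are raw counts with no normalization. The study's methods name a TruSeq Stranded kit and the sample labels a NEBNext kit, and the annotation release is not given in the sources used here. Of 54752 gene IDs 54723 matched a symbol, and the 1 column that belongs to no sample was not used as a measurement.

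The counts were fitted in edgeR 4.0.16 (R 4.3.3), with filterByExpr (minimum count 10, minimum total 15), TMM and a robust quasi-likelihood F test, two-sided, on all 16 libraries with genotype as the only term, and log2 values with a prior count of 1. P-values were adjusted by Benjamini-Hochberg over 19736 genes in each of 6 comparisons, at 0.05. In 2 further fits the lymphocyte or the adipocyte level was added beside genotype. With 4 libraries a genotype, p-values measure the spread between libraries. Depth was 36.8 to 61.9 M counts, and at 678 counts or more for every vascular gene the spread between libraries exceeded the counting error.

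The genes and the 23 lists of 242 genes beside them were chosen with earlier results of these data known. The genes named are the 10 vascular genes, in each list at most 3 genes, those lowest in p for the comparison at hand, and the 5 most alike by Pearson's r; Lep, Adipoq, Glycam1 and the genes beyond that rule were named after their values were seen. The alternatives were DESeq2 1.42.0 size factors or tests, other filters, the compared genotypes only, the replicate number as a block, either level as a covariate and leaving out each library. Leaving out Lepob/+ replicate 4 together with replicate 3 of SOD1G93A-Lepob/+, and a fit with both levels, were added after seeing the data. The labels give no pairing of the mice by replicate number. Of 24 same-numbered pairs of libraries, 5 had residuals correlated over 0.1 and 8 under -0.1. These residuals cannot decide whether the mice were paired, since same-numbered libraries also differed in lymphocyte level. The procedure was tested on simulated counts before use.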

Additional observations from a re-analysis of the deposited data

Results flagged for a closer look

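The vascular genes, both levels and the ratio of Pecam1 to Cdh5 were each put to Dixon's test within each of the 4 genotypes, 52 tests in all. In 6 a library stood far from the other 3, where chance alone gives about 1 in 20 for a single test. The tests share libraries and are not independent, so no excess over chance is read from this count. Pecam1 (306 CPM) and Tie1 (149 CPM) stood apart in the library labelled SOD1G93A-Lepob/+ replicate 3, above the other 3 of that genotype. Kdr (178 CPM) and Vegfa (249 CPM) stood apart upward in SOD1G93A replicate 3. The lymphocyte level stood apart upward in Lepob/+ replicate 3 (6.68) and downward in SOD1G93A replicate 3 (-0.073), so the SOD1G93A library with the highest Kdr and Vegfa is also the one with the lowest lymphocyte level. Outside the main measurement, 4 Y chromosome genes summed to 1756 counts in the library labelled SOD1G93A-Lepob/+ replicate 3 and to 0 in the other 15, although all mice are labelled females.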

How the results depend on the processing

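In the 6 genotype comparisons no setting brought any of the 10 vascular genes past an adjusted p of 0.05, so the settings differ in the size and direction of small values. DESeq2 on all libraries called 1 gene for Lepob/+ against WT, 2 for SOD1G93A against WT, 595 for SOD1G93A-Lepob/+ against SOD1G93A, 47 for SOD1G93A-Lepob/+ against WT, 77 for SOD1G93A-Lepob/+ against Lepob/+ and 46 for the interaction, where edgeR called 0. In that order, DESeq2 on the compared genotypes only called 4, 13, 1546, 293 and 34, with 332, 1806 and 1034 genes at an unadjusted p under 0.05 for the first and the last 2, and 1 vascular gene (Vwf) at an unadjusted p under 0.05 in SOD1G93A-Lepob/+ against SOD1G93A. The same setting in edgeR called 2 genes in each of SOD1G93A-Lepob/+ against SOD1G93A and against WT, with 254 at an unadjusted p for Lepob/+ against WT, 1005 for SOD1G93A-Lepob/+ against Lepob/+ and again 1 vascular gene (Vwf). With no filter 777 genes had an unadjusted p under 0.05 in SOD1G93A against WT, and 8 vascular genes were called on the lymphocyte level and 5 on the adipocyte level. DESeq2 size factors in edgeR and the stricter filter moved no value that far.

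With the lymphocyte level in the fit of SOD1G93A-Lepob/+ against SOD1G93A the values turned for Pecam1 (-0.016), Cdh5 (-0.16), Kdr (-0.26), Flt1 (-0.25), Tek (-0.17), Tie1 (-0.20), Emcn (-0.087), Egfl7 (-0.21) and Vegfa (-0.070), 759 genes had an unadjusted p under 0.05, 1 gene passed the adjusted threshold in SOD1G93A against WT, and 1 vascular gene had an unadjusted p under 0.05 in Lepob/+ against WT. With the adipocyte level Pecam1 (-0.049), Kdr (-0.22), Flt1 (-0.10) and Egfl7 (-0.12) turned, as did Cdh5 in SOD1G93A-Lepob/+ against Lepob/+ (-0.084) and Kdr in the interaction (-0.085). It left 726 genes at an unadjusted p under 0.05 in SOD1G93A-Lepob/+ against SOD1G93A, 485 against WT, 709 against Lepob/+ and 429 in the interaction, and 1 vascular gene in each of Lepob/+ against WT, SOD1G93A-Lepob/+ against WT and Lepob/+, and the interaction. With both levels in the same fit 0 vascular genes were called on either, 923 genes were called on the adipocyte level, and the slope turned for Pecam1 on the lymphocyte level (0.023) and for Tek (-0.070) and Vwf (-0.21) on the adipocyte level.

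The replicate block left 0 vascular genes called in the genotype comparisons. With it 8 vascular genes were called on the lymphocyte level and 5 on the adipocyte level. On the adipocyte level Tek then passed (1.34, adjusted p = 0.0231 by edgeR), while Cdh5, Tie1 and Egfl7 did not. Genes at an unadjusted p under 0.05 numbered 414 in Lepob/+ against WT, 534 in SOD1G93A-Lepob/+ against WT and 760 against Lepob/+. In the interaction there were 969. Whether the replicate numbers pair the mice is not given in the labels. With Lepob/+ replicate 4 left out together with replicate 3 of SOD1G93A-Lepob/+, 343 genes had an unadjusted p under 0.05 in Lepob/+ against WT and 941 in SOD1G93A-Lepob/+ against Lepob/+, edgeR called 2 genes in SOD1G93A-Lepob/+ against each of the other 3 genotypes and 6839 on the adipocyte level, and Pecam1 (-0.18), Kdr (-0.039) and Egfl7 (-0.032) turned in SOD1G93A-Lepob/+ against SOD1G93A.

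Leaving out each library in turn gave 341 to 2295 genes at an unadjusted p under 0.05 for Lepob/+ against WT, 217 to 1541 for SOD1G93A against WT, 1473 to 5635 for SOD1G93A-Lepob/+ against SOD1G93A, 436 to 1456 for SOD1G93A-Lepob/+ against WT, 1057 to 2477 for SOD1G93A-Lepob/+ against Lepob/+ and 751 to 3258 for the interaction. At an adjusted p it gave 0 to 1 for SOD1G93A against WT, 0 to 3 for SOD1G93A-Lepob/+ against SOD1G93A, and 0 to 2 for the others with SOD1G93A-Lepob/+ and for the interaction. Vascular genes at an unadjusted p under 0.05 numbered 0 to 2 for SOD1G93A against WT, 0 to 3 for SOD1G93A-Lepob/+ against SOD1G93A, 0 to 1 for SOD1G93A-Lepob/+ against WT and 0 to 2 for the interaction. In SOD1G93A-Lepob/+ against SOD1G93A Pecam1 ran from -0.19 to 0.12, Kdr from -0.044 to 0.28 and Egfl7 from -0.037 to 0.35, each lowest without the library labelled SOD1G93A-Lepob/+ replicate 3. Kdr against WT ran from -0.24 to 0.077, highest without WT replicate 3, and Vegfa against Lepob/+ from -0.12 to 0.087. Vascular genes called numbered 5 to 9 on the lymphocyte level and 0 to 7 on the adipocyte level, with 307 to 6852 genes in all on the latter, lowest without SOD1G93A replicate 3 and highest without Lepob/+ replicate 4. The cause was not tested for any of these. At 678 counts or more, depth limits no value of a vascular gene, and the 4 libraries a genotype do.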

Other observations

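Platelet genes were read beside Vwf and Pecam1, which platelets also carry. Pf4, a platelet chemokine that some macrophages also express, ran from 17.5 to 121 CPM over the 16 libraries and was highest in Lepob/+ replicate 2, while the more platelet-restricted Ppbp was at 0.1 to 0.8 CPM. Of 5 platelet genes tested 0 passed an unadjusted p of 0.05 in SOD1G93A-Lepob/+ against SOD1G93A, with a median log2 fold change of 0.11. Red blood cell genes were lower in SOD1G93A than in WT in 6 of 6, with a median of -1.04, and higher in SOD1G93A-Lepob/+ than in SOD1G93A in 6 of 6, with a median of 1.07; these comparisons share the SOD1G93A libraries, and none passed the adjusted threshold by edgeR. Macrophage genes were higher in SOD1G93A-Lepob/+ in 11 of 12, with a median of 0.53 and 0 at an unadjusted p under 0.05. Without the library labelled SOD1G93A-Lepob/+ replicate 3 the medians were 1.23 for red blood cell genes (6 of 6 higher) and 0.62 for macrophage genes (11 of 12 higher). Of 8 proliferation genes 6 rose with the lymphocyte level and 0 fell, led by Top2a (0.31) and Mki67 (0.29).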
